A study of Oryza sativa Indica Group with 12 samples.

Results

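The loops captured with an antibody against RNA polymerase II (RNAPII) and those captured with an antibody against H3K4me3 were compared loop by loop. They came from the indica rice variety MH63 (Minghui 63). All 17160 RNAPII loops and all 9714 H3K4me3 loops listed for this variety were members. They were 26874 of the 64726 loops in the 6 lists of the series. The lists hold only loops within a chromosome. The study also counted loops between chromosomes, which enter no value below. A loop was called shared when both of its anchors overlapped, by at least 1 bp, both anchors of a single loop of the other target. It was called partly shared when at least 1 of its anchors, but no whole loop, met the other target, and private when neither anchor did. The series measured chromatin interactions by long-read ChIA-PET in young leaves of 2-week-old seedlings of MH63 and of ZS97 (Zhenshan 97), the parents of a rice hybrid, with antibodies against RNAPII, H3K4me3 and H3K9me2. No agent other than the cross-linkers was applied, which were formaldehyde and the longer amine-reactive linker ethylene glycol bis(succinimidylsuccinate) in all groups. Every target was done in 2 replicates per variety, 12 libraries in all, and the authors joined replicates before calling loops. The compared groups were therefore the joined MH63 RNAPII list and the joined MH63 H3K4me3 list, with MH63 H3K9me2 as a further readout and ZS97 as another variety. The lists carry no genes, so the tissue could not be checked against marker genes, and no gene is named at any anchor.

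H3K4me3, trimethylation of lysine 4 of histone H3, marks the promoters and first part of active genes, and is laid down around the transcription start. RNAPII transcribes those genes and is found both at the promoter and along the transcribed body. In ChIA-PET, cross-linked chromatin is pulled down with an antibody and fragment ends held close together are ligated, so that a paired-end tag (PET) reads a pair of genome positions that met. In rice and other plants, loops of both targets join promoters and gene bodies of active genes, whereas H3K9me2 marks silent heterochromatin rich in transposons.

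A loop is an entry with 2 anchors and a PET count, which is the number of ligation PETs between the anchors summed over both replicates. Both MH63 lists begin at 4 PETs. A leaf holds many cell types, so an entry in both lists does not say that RNAPII and H3K4me3 were at the same contact in the same cell. With joined replicates no value has a spread between replicates, so no p-value was computed. The 95% intervals below are Wilson intervals of shares or binomial intervals of medians, and they cover counting error only.

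Few loops were found whole in both lists, although most RNAPII loops touched an H3K4me3 anchor. Of the RNAPII loops 1219 were shared (7.1%, interval 6.73 to 7.5%), 13184 were partly shared (76.8%) and 2757 were private (16.1%). Of the H3K4me3 loops 1312 were shared (13.5%, interval 12.8 to 14.2%), 4189 were partly shared (43.1%) and 4213 were private (43.4%). These shares are the classes themselves, so each also stands for the whole list. Private loops thus made up a smaller part of the RNAPII list than of the H3K4me3 list, by more than the counting error. This order turned round with loops of at least 10 PETs in both lists, where private loops were 75.1% (73.8 to 76.3%) of 4791 RNAPII loops and 42.6% (38.9 to 46.4%) of 660 H3K4me3 loops. The partly shared loops differed in kind between the targets. In 5927 RNAPII loops (34.5% of the list) both anchors overlapped H3K4me3 anchors that no single H3K4me3 loop joined, against 312 H3K4me3 loops (3.21% of the list) whose anchors both overlapped unjoined RNAPII anchors, and these are called both-anchor loops below. In a further 7257 RNAPII loops (42.3%) and 3877 H3K4me3 loops (39.9%) only a single anchor overlapped, and these are called single-anchor loops. The shared loops held more of the ligation signal than of the entries in the RNAPII list, with 40698 of 191725 PETs (21.2%), while in the H3K4me3 list they held 15.7% of the PETs.

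**Figure D1:**
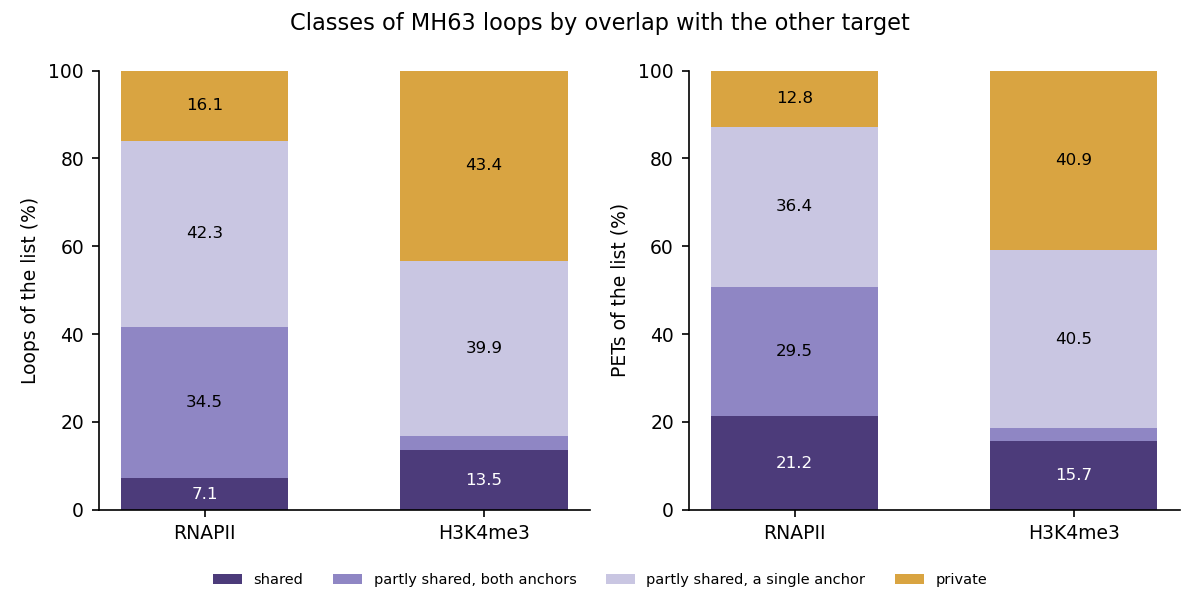
Share of loops (left, %) and share of PETs (right, %) in each class, for the RNAPII and the H3K4me3 list of MH63, as stacked bars that sum to 100; counts are of joined replicates and carry no replicate error. Shared loops were 7.1% of RNAPII loops and 21.2% of RNAPII PETs, and private loops were 16.1% of RNAPII loops against 43.4% of H3K4me3 loops.

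These shares moved with how closely anchors had to match. With anchors allowed to lie up to 5 kb apart, a setting chosen after seeing the data, 22.6% of RNAPII loops and 37.8% of H3K4me3 loops were shared. With each anchor replaced by 1 kb around its midpoint, the shares were 0.682% and 1.18% for RNAPII and H3K4me3 loops. RNAPII anchors were the wider ones, with a median of 6.39 kb against 1.47 kb for H3K4me3 anchors, and the private class varied with anchor width. Private loops were 60.1% of the RNAPII loops whose anchors averaged under 2 kb, 6.13% of those with anchors of 8 to 16 kb, and 13.3% of the 83 loops with wider anchors. The part of anchor width in the classes was not tested beyond these settings.

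Shared anchors overlapped by more than an edge. The 1219 RNAPII and 1312 H3K4me3 loops formed 1446 pairs, of which 847 were exclusive to each other. In 186 cases (15.3%) an RNAPII loop matched more than 1 H3K4me3 loop, up to 6, and 129 H3K4me3 loops (9.83%) matched more than 1 RNAPII loop, up to 3. Over the 2892 matched anchors the RNAPII anchor had a median width of 6.07 kb and the H3K4me3 anchor of 1.67 kb, with a median overlap of 1.37 kb. The H3K4me3 anchor lay wholly inside the RNAPII anchor in 1708 of these (59.1%, interval 57.3 to 60.8%), and only 62 overlaps (2.14%) were shorter than 100 bp. The midpoints of matched anchors lay a median of 1.90 kb apart. Pairs were defined by overlap at both anchors, so nearly equal spans follow from the rule. The median difference in span, RNAPII minus H3K4me3, was -0.12 kb, with quartiles of -2.97 and 2.56 kb.

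Shared loops were short, and this set them apart from other RNAPII loops more than from other H3K4me3 loops. An RNAPII loop could be shared only by overlapping both anchors of a single H3K4me3 loop. Its span was thus tied to those of the H3K4me3 list, whose median was 16.3 kb. The short span of shared RNAPII loops and their rarity over 1 Mb are therefore a description only. Shared RNAPII loops had a median span between anchor midpoints of 17.7 kb (interval 16.7 to 18.6 kb), against 25.3 kb (23.9 to 27.2 kb) in private RNAPII loops. RNAPII loops with both anchors on unjoined H3K4me3 anchors had a median span of 249 kb (232 to 269 kb), and those with a single anchor on H3K4me3 had 46.7 kb. In the H3K4me3 list the medians were 17.4 kb for shared, 15.3 kb for private, 33.1 kb for both-anchor and 16.6 kb for single-anchor loops. The order of shared below private held on 11 of the 12 chromosomes for RNAPII loops and on 1 of 12 for H3K4me3 loops. The size of the gap in RNAPII loops varied with the setting. With the RNAPII list cut to the size of the H3K4me3 list the medians were 17.8 kb shared and 20.2 kb private. With 1 kb around midpoints they were 15.8 and 61.0 kb. Long contacts fell almost wholly outside the shared class. Over 1 Mb there were 3 shared RNAPII loops (0.246%), against 1832 of the both-anchor class (30.9%) and 221 of the private class (8.02%). The longest shared RNAPII loop spanned 9606 kb on chromosome 2, between anchors starting at 23524741 and 33129599, and had 4 PETs in each list, the lowest count that either list holds.

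The span at which both targets joined the same anchors was read most directly from RNAPII loops with both anchors on H3K4me3 anchors, since both ends of these loops lay on anchors of both targets. Of such loops of 10 to 20 kb, 423 of 611 (69.2%, interval 65.5 to 72.8%) were also joined by an H3K4me3 loop. The share was 38.2% (35.4 to 41.0%) at 20 to 50 kb, 8.31% (6.65 to 10.3%) at 50 to 100 kb and 1.26% (0.685 to 2.30%) at 100 to 200 kb. At 200 to 1000 kb it was 0.149%, 2 of 1341 loops, and beyond 1 Mb 0.163%, 3 of 1835. The share at 20 to 50 kb was below that at 10 to 20 kb on all 12 chromosomes. Under 10 kb it was 49.6% over all loops and 67.8% (61.6 to 73.5%) after leaving out RNAPII loops whose own anchors overlapped each other. In the opposite direction the decline came later. H3K4me3 loops with both anchors on RNAPII anchors were also joined by an RNAPII loop in 89.6% (87.0 to 91.7%) at 10 to 20 kb, 83.8% at 20 to 50 kb, 67.3% (58.1 to 75.3%) at 50 to 100 kb and 42.9% (24.5 to 63.4%) at 100 to 200 kb, the last from 21 loops. Each share also depends on how many loops the other list holds at that span. At 50 to 100 kb there were 526 H3K4me3 and 2224 RNAPII loops. At 100 to 200 kb there were 88 and 1579, and at 200 to 1000 kb 25 and 2194. Loops over 1 Mb numbered 3187 (18.6%) in the RNAPII list, against 174 (1.79%) in the H3K4me3 list. The part of these numbers in the decline was not tested. The lists hold no library totals. The study's sequencing table gives the joined MH63 RNAPII library fewer inter-ligation PETs than the H3K4me3 library, so by that measure H3K4me3 was the deeper data set. Contacts without H3K4me3 and contacts missed by its pull-down or loop calling cannot be told apart here.

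**Figure D2:**
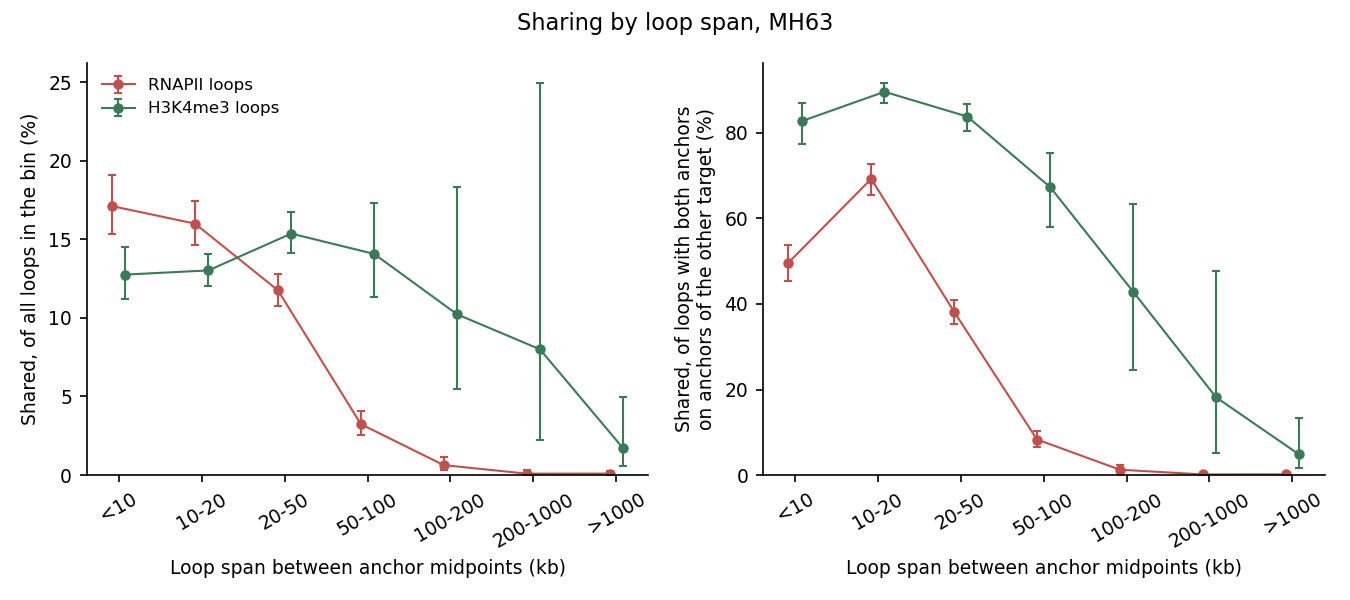
Share of loops that were shared (%) by span between anchor midpoints (kb), over all loops of the bin (left) and over loops with both anchors on anchors of the other target (right), with Wilson 95% intervals that cover counting error only; RNAPII loops in red, H3K4me3 loops in green. At 10 to 20 kb the right-hand share was 69.2% for RNAPII and 89.6% for H3K4me3 loops, and at 50 to 100 kb it was 8.31% and 67.3%.

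Nearly all both-anchor H3K4me3 loops, but a minority of both-anchor RNAPII loops, spanned a chain of loops of the other target. Overlapping anchors of a list were joined into single anchors, and the shortest path between the 2 ends of each loop was followed through the loops of the other target. Of the 5927 RNAPII loops of this kind, 1101 (18.6%, interval 17.6 to 19.6%) had their ends connected through H3K4me3 loops, 577 of them by 2 loops in a row, and 4632 (78.2%) were not connected. In the other 194 both ends fell on the same joined H3K4me3 anchor. Of the 312 H3K4me3 loops, 283 (90.7%, 87.0 to 93.5%) had ends connected through RNAPII loops, in 187 cases by 2 loops in a row, 24 had both ends on the same RNAPII anchor and 5 were not connected. Connection of the RNAPII loops again fell with span. It was 59.9% at 20 to 50 kb, 37.5% at 50 to 100 kb, 17.2% at 100 to 200 kb, 3.29% at 200 to 1000 kb and 0.873% beyond 1 Mb. For H3K4me3 loops of 20 to 50 kb it was 96.6%. The lists offered unlike numbers of paths. An RNAPII anchor was joined by loops to a mean of 4.33 other anchors, and an H3K4me3 anchor to 1.78. The loops followed also differed in median span, 249 kb for RNAPII and 33.1 kb for H3K4me3. Connection between other pairs of anchors was not measured, so the contrast between the targets is a description only.

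RNAPII loops commonly enclosed H3K4me3 loops, and the reverse was less common. Inside an H3K4me3 loop of up to 1 Mb lay 34.7% of shared, 12.2% of partly shared and 14.3% of private RNAPII loops. Of the shared H3K4me3 loops 97.0% lay wholly inside the outer ends of an RNAPII loop of up to 1 Mb, as did 89.1% of the partly shared and 73.0% (3076) of the private ones. The median number of RNAPII loops over each was 10.5, 6 and 3 in the same order. RNAPII loops were the more numerous and the longer ones, with a median span of 59.3 kb against 16.3 kb. A shared H3K4me3 loop also has, by definition, an RNAPII loop at both of its anchors, usually with wider anchors. The order of the classes and the difference between the targets are therefore a description only. At 62 sites (4.73%) a shared H3K4me3 loop lay within a single RNAPII anchor. This belongs with a feature of the RNAPII list, in which the anchors of 465 loops overlapped each other. Of these, 106 were among the shared loops, and 81 of those 106 had the same interval given for both anchors. Such loops have little or no span of their own, and without them 6.67% of RNAPII loops were shared.

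Shared RNAPII loops carried more PETs than other RNAPII loops. Their median was 16 PETs with quartiles of 7 and 35, against 5 PETs with quartiles of 4 and 9 in private loops and 6 PETs in both kinds of partly shared loops. Loops at the lowest count of 4 PETs were 7.79% (6.42 to 9.43%) of the shared and 32.1% (30.3 to 33.8%) of the private RNAPII loops. The shared median was above the private one on all 12 chromosomes. The order was also present among loops of like span. In RNAPII loops under 20 kb the median was 17 PETs for shared, 12 for both-anchor, 8 for single-anchor and 6 for private loops, and at 20 to 50 kb it was 15, 9, 6 and 5 PETs in that order. Anchor width differed between these classes too. Its medians in the same order were 5.8, 7.7, 3.5 and 2.9 kb under 20 kb, and 6.1, 5.6, 4.4 and 3.2 kb at 20 to 50 kb. The gap in counts moved with how closely anchors had to match. With 1 kb around midpoints the medians were 7 PETs (6 to 10) in shared and 6 PETs in private RNAPII loops. With anchors up to 5 kb apart they were 9 and 6 PETs. With an overlap of at least 50% of the narrower anchor they were 18 and 5 PETs. The part of width in the PET counts was not tested beyond these settings. In the H3K4me3 list the median was 5 PETs in shared and in private loops alike, and the difference lay in the tail, with 31.9% of shared and 46.5% of private loops at the lowest count. Shared H3K4me3 loops had the higher median on 7 of the 12 chromosomes.

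Read the other way, the shared part of the RNAPII loops was larger at higher PET counts. Of RNAPII loops with 4 PETs 2.04% were shared, of those with 10 to 19 PETs 9.96%, of those with 20 to 49 PETs 22.9%, and of those with at least 50 PETs 47.0% (211 of 449, interval 42.4 to 51.6%). The same climb was seen within spans, with anchor width not held alike. Under 20 kb it ran from 7.74% at 4 or 5 PETs to 47.4% at 50 or more, at 20 to 50 kb from 3.76 to 51.5%, and at 50 to 100 kb from 1.41% to 5 of 20 loops. At 100 kb or more, even RNAPII loops with 20 to 49 PETs were shared in only 1.32% of cases (2 of 152). H3K4me3 loops showed a climb as well, with 10.1% shared at 4 PETs, 24.6% at 10 to 19 PETs and 43.6% (29.3 to 59.0%) at 20 PETs or more, the last from 39 loops.

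**Figure D3:**
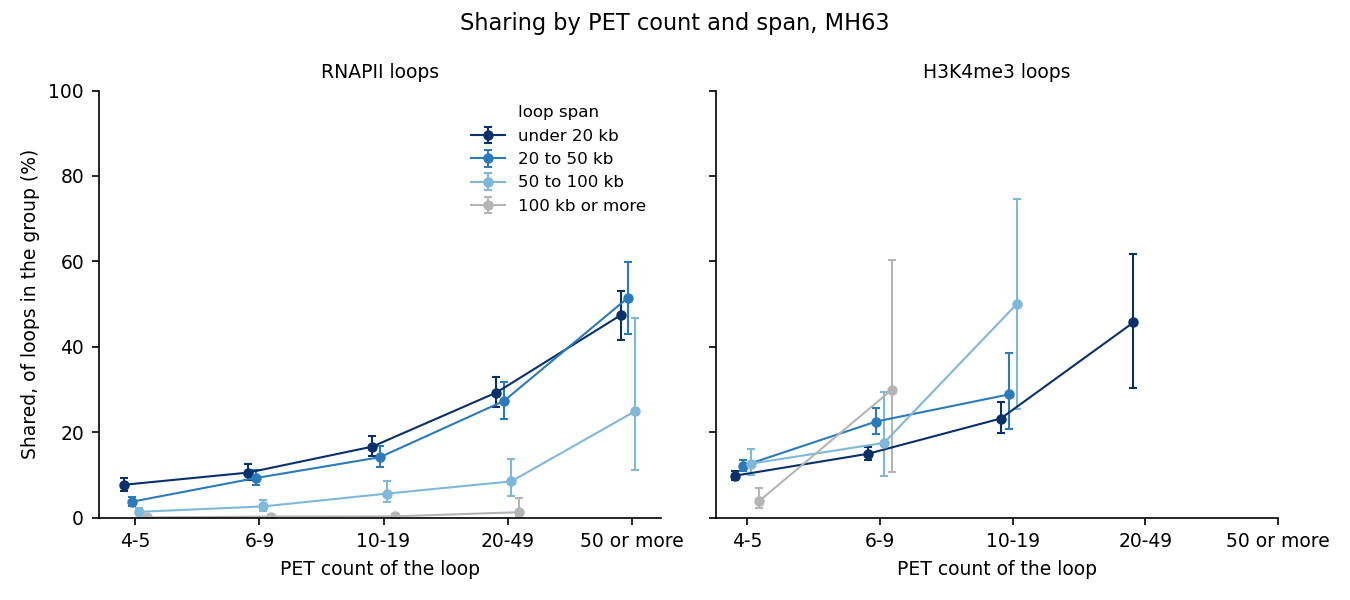
Share of loops that were shared (%) by PET count of the loop, in separate lines for loop spans, for RNAPII loops (left) and H3K4me3 loops (right), with Wilson 95% intervals that cover counting error only; groups of fewer than 10 loops are not drawn. Sharing of RNAPII loops under 20 kb was 7.74% at 4 or 5 PETs and 47.4% at 50 PETs or more, while RNAPII loops of 100 kb or more stayed near 0 at all PET counts drawn.

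Within shared pairs the RNAPII loop usually had the higher count. Each shared RNAPII loop was set against the mean count of the H3K4me3 loops it matched, whose median was 5.5 PETs. The median log2 ratio, RNAPII over H3K4me3, was 1.42 (interval 1.29 to 1.51), or 2.67-fold, with quartiles of 0.42 and 2.58. Of the 1219 loops 994 (81.5%) had the higher count in RNAPII, 140 (11.5%) in H3K4me3, and 85 had equal counts. At least 2-fold higher in RNAPII were 739 (60.6%) and at least 2-fold lower were 40 (3.28%), shares that are over all shared loops. The counts are not scaled to library depth. By inter-ligation PETs in the study's sequencing table the RNAPII library was the shallower of the pair. Matched RNAPII anchors were wider, with a median of 6.07 kb against 1.67 kb. Where pairs were matched by 1 kb around midpoints, with counts unchanged, the median log2 ratio was 0.32, from 117 shared RNAPII loops. A difference in pull-down cannot be told apart from the ratio, and the parts of depth and anchor width were not tested. The counts of paired loops hardly moved together. Spearman's rho was 0.13 and Pearson's r of log2 counts was 0.15 over the 1219 loops, which share anchors and the floor of 4 PETs, and over the 847 exclusive pairs they were 0.16 and 0.19. RNAPII loops had a median of 22.5 PETs where the H3K4me3 mean was 10 or more (158 loops), against 15 PETs where it was lower (1061 loops).

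**Figure D4:**
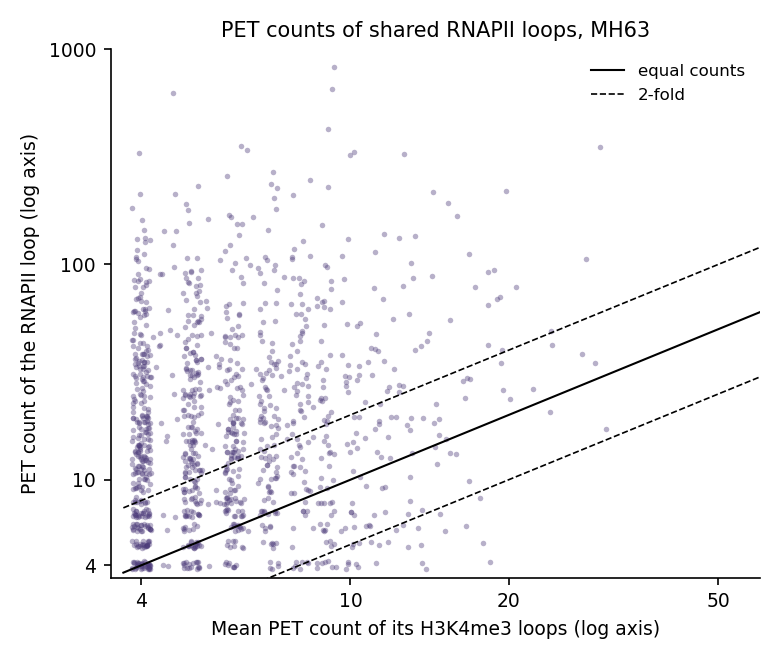
PET count of each shared RNAPII loop (vertical, log axis) against the mean PET count of the H3K4me3 loops that match it (horizontal, log axis), 1219 points with a small random shift so that equal counts can be seen; the solid line marks equal counts and the dashed lines 2-fold. Most points (994) lie above the solid line, and the cloud is nearly flat, with a Spearman's rho of 0.13.

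The strongest single loops show how far the targets could part at the same anchors. The RNAPII loop with the highest count of all, 817 PETs, was shared. It spanned 26.3 kb on chromosome 3 between 9063200 to 9072754 and 9089461 to 9099140 in MH63 coordinates, and its H3K4me3 match had 9 PETs, a log2 ratio of 6.50. The next, with 642 PETs, joined 22989107 to 22999087 and 23004246 to 23021015 on chromosome 2, over 18.5 kb. It matched 2 H3K4me3 loops, with 5 and 4 PETs, which started from the same H3K4me3 anchor and ended at separate sites within the wider RNAPII anchor, and its log2 ratio of 7.16 was the highest of those with at least 20 PETs in sum. At the other end, an RNAPII loop of 4 PETs on chromosome 7, with anchors starting at 27148975 and 27164770, matched an H3K4me3 loop of 19 PETs, a log2 ratio of -2.25. A second on chromosome 1, with anchors starting at 36127263 and 36144154, had 5 PETs in RNAPII and 18 PETs in H3K4me3, a log2 ratio of -1.85. In both of these low-ratio loops 1 RNAPII anchor was narrow, 0.576 kb and 0.554 kb.

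The shared H3K4me3 loops named for their counts had RNAPII matches only slightly stronger than themselves, which was not the rule among shared loops. On chromosome 3, an RNAPII loop of 49 PETs matched the H3K4me3 loop with the highest count, 43 PETs, between anchors starting at 30306302 and 30316363. That RNAPII loop matched 2 H3K4me3 loops, with a mean of 23.5 PETs, so its log2 ratio to the mean was 1.06. On chromosome 2, an RNAPII loop of 34 PETs matched an H3K4me3 loop of 30 PETs between anchors starting at 24429011 and 24441415. These loops had H3K4me3 anchors of 2.55 to 4.67 kb, wider than the median of 1.67 kb for shared loops.

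Among partly shared loops the unmatched anchor often lay within a few kb of the other target. The strongest of the RNAPII loops, with 436 and 372 PETs, were both on chromosome 7. For the first, with anchors starting at 26618786 and 26635784, the unmatched anchor lay 4.50 kb from the nearest H3K4me3 anchor, and for the second, with anchors starting at 27672213 and 27680905, it lay 0.524 kb away. Of the strongest H3K4me3 loops of this class, 1 of 34 PETs on chromosome 4, starting at 19850472, had an unmatched anchor 10.98 kb from the nearest RNAPII anchor. The other, with 30 PETs on chromosome 2 and starting at 15965547, missed an RNAPII anchor by 0.001 kb. Over all RNAPII loops with a single overlapping anchor, the unmatched anchor lay a median of 3.94 kb (3.83 to 4.20 kb) from an H3K4me3 anchor, within 5 kb in 55.5% of cases. For H3K4me3 loops the median was 3.59 kb (3.37 to 3.82 kb), within 5 kb in 60.1%. Within 1 kb it lay in 18.4% of these RNAPII and 17.7% of these H3K4me3 loops. How far other positions lie from such anchors was not measured, so these distances are a description only.

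Private loops ranged from those with an anchor within a few kb of the other target to remote contacts. In private RNAPII loops the nearer anchor lay a median of 3.66 kb from an H3K4me3 anchor and the farther anchor 16.9 kb, and in private H3K4me3 loops the values to RNAPII anchors were 4.28 kb and 16.5 kb. More than 100 kb from any anchor of the other target were 233 private RNAPII loops (8.45%, 7.47 to 9.55%) and 420 private H3K4me3 loops (9.97%, 9.10 to 10.9%). Private RNAPII loops with high counts were few. Of the 449 RNAPII loops with at least 50 PETs, 211 were shared, 198 partly shared and 40 private (8.91%), and in 11 of these 40 the anchors overlapped each other. In 9 of the 40 the nearer anchor was over 100 kb from H3K4me3, and in 8 it was within 5 kb. The private RNAPII loop with the highest count, 376 PETs, had the same interval, 14693892 to 14719180 on chromosome 2, for both anchors, lay 467 kb from any H3K4me3 anchor and overlapped an H3K9me2 anchor. The next, with 169 PETs, spanned 24.7 kb on chromosome 11 between anchors starting at 16463247 and 16489743, and its nearer anchor was 666 kb from any H3K4me3 anchor, with no H3K9me2 overlap. In the H3K4me3 list the strongest private loop, with 37 PETs on chromosome 4 between anchors starting at 26497742 and 26507710, lay 63.0 kb from any RNAPII anchor. The next, with 22 PETs on chromosome 6 and starting at 22478092, lay 0.535 kb and 1.02 kb from RNAPII anchors.

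H3K9me2, which neither the classes nor the compared lists used, was rare in all classes, and rarer in shared than in private loops. At least 1 anchor overlapped an MH63 H3K9me2 anchor in 3.36% (2.49 to 4.53%) of shared and 7.44% (6.51 to 8.48%) of private RNAPII loops, and in 1.68% (1.11 to 2.53%) of shared and 3.8% (3.26 to 4.42%) of private H3K4me3 loops. Single-anchor RNAPII loops lay between, at 6.20%, and both-anchor ones at 4.18%, while both-anchor H3K4me3 loops had the lowest share, 0.962%, from 3 loops. Over the whole lists the shares were 5.50% of RNAPII and 2.77% of H3K4me3 loops. Shared was below private on 9 of the 12 chromosomes for RNAPII and on 10 of 12 for H3K4me3 loops. The order was not kept at every span. For RNAPII loops it was 2.18% of shared against 5.72% of private loops under 20 kb. At 20 to 50 kb the shares were close, 3.82% of shared against 4.22% of private loops. They were 11.1% of shared against 9.25% of private loops at 50 to 100 kb, with 72 shared loops in that span.

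Shared loops were a small part of the loops at RNAPII anchors of every degree of connection. Joining overlapping anchors left 7260 RNAPII and 10855 H3K4me3 anchors. Of the RNAPII anchors 1578 (21.7%) carried at least 1 shared loop, 1307 (18.0%) overlapped H3K4me3 without one, and 4375 (60.3%) did not overlap H3K4me3. Their median numbers of partners, other RNAPII anchors joined to them by a loop, were 5, 3 and 1, and their median widths 5.54, 4.43 and 1.86 kb. An anchor with more loops has more occasions to carry a shared one, so the first of these medians is a description only. At like width, RNAPII anchors of 4 to 8 kb that overlapped H3K4me3 had a median of 5 partners against 3 for those that did not, and anchors of 8 kb or more had 11 against 7. Under 2 kb both medians were 1. Counted by loops, 7.33% of the loops at RNAPII anchors with 1 or 2 partners were shared, 8.60% at anchors with 3 or 4, 9.25% at anchors with at least 5 and fewer than 10, and 5.18% at anchors with at least 10, with no steady rise. Of the 786 RNAPII anchors with at least 10 partners 58.1% carried at least 1 shared loop. Of the H3K4me3 anchors 1856 (17.1%) carried a shared loop.

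The RNAPII anchor with the most shared loops and the H3K4me3 anchor with the most lay at the same place on chromosome 7. The RNAPII anchor, 22203297 to 22217630, had 25 partners and 34 loops, of which 7 were shared and 27 partly shared. The H3K4me3 anchor, 22208745 to 22214471, lay inside it and had 15 loops, 7 of them shared and 8 partly shared. Within 60 kb on each side, 7 RNAPII loops with both anchors in the window were shared, with 5 to 216 PETs, and 14 were partly shared, with 4 to 78 PETs. In the same window 8 H3K4me3 loops were shared, with 4 to 17 PETs, 11 were partly shared, with 4 to 29 PETs, and 1 was private, with 5 PETs. The shared loops of both targets lay mainly on the side of lower coordinates. The anchors with the most private loops were elsewhere. The RNAPII one, 27938876 to 27947631 on chromosome 4, had 25 private and 26 partly shared loops to 43 partners, and overlapped no H3K4me3 anchor. The H3K4me3 one, 34090432 to 34092907 on chromosome 2, had 10 loops, all private.

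**Figure D5:**
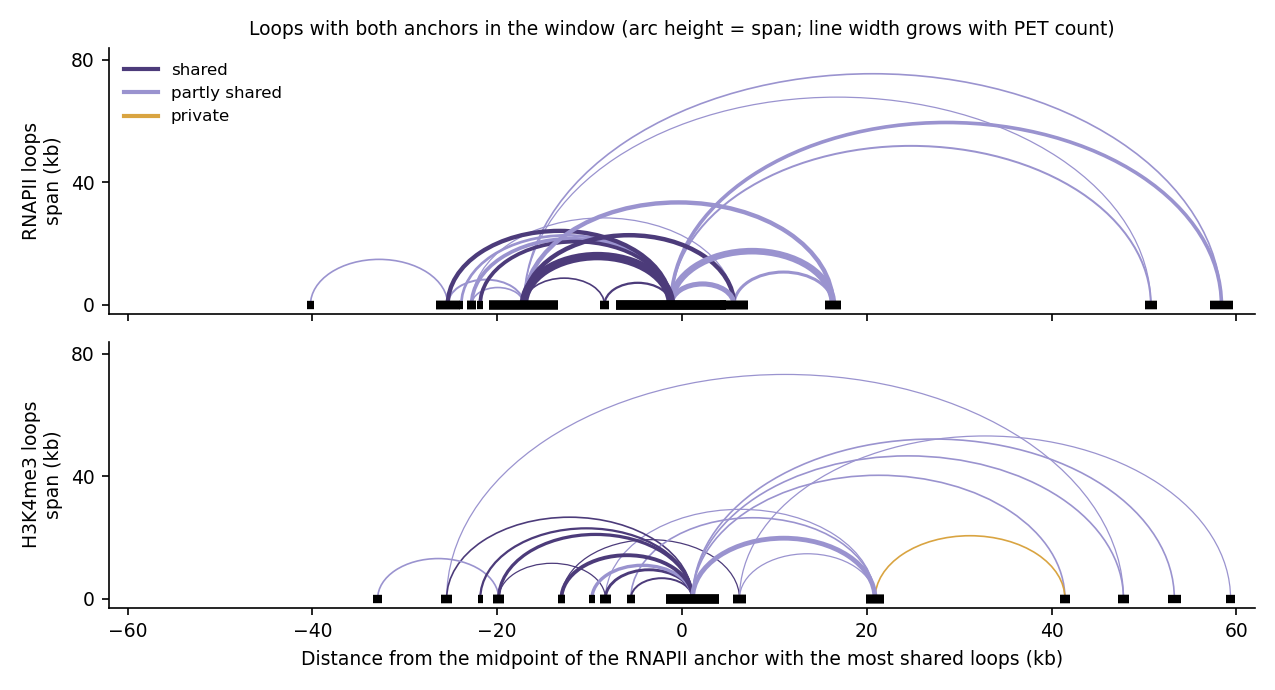
Loops with both anchors within 60 kb of the midpoint of the RNAPII anchor with the most shared loops; horizontal axis, distance from that midpoint (kb); vertical axis and arc height, loop span (kb); line width grows with PET count, black bars are anchors and colours give the class. The upper row holds 7 shared and 14 partly shared RNAPII loops, the lower row 8 shared, 11 partly shared and 1 private H3K4me3 loops.

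The classes varied along the genome. By chromosome, shared RNAPII loops made up 5.51% (chromosome 1) to 9.19% (chromosome 10) of the RNAPII loops, and private ones 9.12% (chromosome 3) to 35.2% (chromosome 12). Shared H3K4me3 loops made up 5.65% (chromosome 12) to 17.2% (chromosome 3), and private ones 35.4% (chromosome 3) to 67.6% (chromosome 12). Chromosome 3 thus had the lowest private share and chromosome 12 the highest in both lists. In windows of 1 Mb by loop midpoint, both targets had loops in 347 of 363 windows, and a shared RNAPII loop lay in 231 of them. The numbers of RNAPII and H3K4me3 loops per window went together, with a Spearman's rho of 0.84 and a Pearson's r of 0.76 over the 363 windows, which come from the same genome and differ in gene content. The windows with the most shared RNAPII loops were both on chromosome 3, at 9 to 10 Mb with 27 shared of 360 RNAPII loops and at 1 to 2 Mb with 23 of 162. The window at 9 to 10 Mb holds the loop of 817 PETs. Among windows with no shared loop, those with the most RNAPII loops were at 20 to 21 Mb on chromosome 3, with 62 RNAPII and 2 H3K4me3 loops, and at 18 to 19 Mb on chromosome 5, with 57 RNAPII and 23 H3K4me3 loops.

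ZS97 was classed in its own coordinates for comparison, with only loops of at least 6 PETs in all 4 lists because the ZS97 RNAPII list begins there. The share of RNAPII loops that were shared was then 6.07% (5.61 to 6.57%) in MH63 and 7.98% (7.53 to 8.46%) in ZS97, and that of H3K4me3 loops 17.3% (16.1 to 18.6%) in MH63 and 19.2% (18.1 to 20.3%) in ZS97. Private RNAPII loops made up 35.5% (34.6 to 36.5%) in MH63 and 24.4% (23.7 to 25.2%) in ZS97, and private H3K4me3 loops 43.7% in MH63 and 38.2% in ZS97. Raising the limit to 6 PETs left 3458 H3K4me3 loops in MH63 and 5129 in ZS97 to match against, and the part of list size in these differences was not tested. The fall with span was seen in both varieties. RNAPII loops with both anchors on H3K4me3 anchors were joined by an H3K4me3 loop in 77.1% in MH63 and 79.4% in ZS97 at 10 to 20 kb, and in 42.5% in MH63 and 42.7% in ZS97 at 20 to 50 kb. The median span of shared and private RNAPII loops was 15.9 and 28.0 kb in MH63, and 15.7 and 21.1 kb in ZS97. This order was not kept with the full ZS97 lists, which begin at 6 PETs for RNAPII and 4 PETs for H3K4me3. There the medians were 17.6 kb (16.7 to 18.2 kb) shared and 17.0 kb (16.2 to 17.7 kb) private. At 6 PETs or more, Spearman's rho of paired counts was 0.16 in each variety. The median log2 ratio of counts, RNAPII over H3K4me3, was 1.37 (1.22 to 1.51) in MH63 and 0.89 (0.79 to 1) in ZS97, with neither scaled to depth.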

How the data were processed

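Joined MH63 lists of RNAPII and H3K4me3 loops were compared, with MH63 H3K9me2 anchors and the ZS97 RNAPII and H3K4me3 lists as further readouts; the ZS97 H3K9me2 list was not used here. The authors removed linkers, mapped the tags to the genome of each variety from RIGW (release not given in the sources used here), removed redundant PETs, joined the 2 replicates and called loops between extended ChIP-seq peaks with an updated ChIA-PET Tool (version not given in the sources used here), keeping loops past limits on FDR and PET count. The deposited PET counts per loop are whole numbers that are not scaled to depth. Columns 1 to 7 were used. The remaining columns hold the authors' own p-value and FDR and were left out. Library totals are not in the lists, and the study's totals were used only for the order of depth.

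The lists were read with starts counted from 0, and starts are printed counted from 1. Overlap meant at least 1 bp. Span was the distance between anchor midpoints. Chains and partners used anchors of a list joined where they overlapped. Shares have Wilson intervals and medians binomial intervals of 95%. The members, classes and alternatives were chosen with earlier results of these data known. Named were the 2 loops with the highest PET count in each list and class, the longest shared loop, the 2 highest and 2 lowest ratios with a summed count of at least 20, the anchors with the most shared and most private loops, and the 1 Mb windows with the most shared loops, or with the most RNAPII loops and none shared. The 8 alternatives were other overlaps, other PET limits, a limit on span, RNAPII loops without overlapping anchors, and an RNAPII list cut to the size of the H3K4me3 list; 1 was added after seeing the data. Scripts were tested on simulated data. Programs were Python 3.11.15, pandas 2.3.3, numpy 2.4.6, matplotlib 3.10.9 and scipy 1.17.1.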

Additional observations from a re-analysis of the deposited data

How the results depend on the processing

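No paired analysis was possible because each list holds both replicates together, and no replicate could be left out. Under 8 alternatives and 1 added after seeing the data (anchors up to 5 kb apart), 72 values were compared. Of these, 26 stayed within the counting interval and 46 moved. A change of sign was possible only for the log2 ratio, which stayed above 0 throughout. The percentages below are, in order, shared RNAPII, shared H3K4me3, private RNAPII and private H3K4me3 loops, against 7.10, 13.5, 16.1 and 43.4%. They were 5.15, 9.94, 19.7 and 51.2% with an overlap of at least 50% of the narrower anchor, 10.8, 19.5, 12.7 and 34.8% with anchors up to 1 kb apart, 22.6, 37.8, 7.19 and 20.7% with up to 5 kb, and 0.682, 1.18, 76.5 and 78.5% with 1 kb around each midpoint. With the RNAPII list cut to the loops with the highest counts, to the size of the H3K4me3 list, they were 10.9, 12.1, 14.3 and 49.6%. They were 6.07, 17.3, 35.5 and 43.7% at 6 PETs or more, and 2.84, 19.8, 75.1 and 42.6% at 10 PETs or more, the only setting run in which the private part was larger in the RNAPII than in the H3K4me3 list. Loops of up to 1 Mb gave 8.70% shared and 18.5% private RNAPII loops, and leaving out loops with overlapping anchors gave 6.67% shared RNAPII and 12.4% shared H3K4me3 loops. The median span of shared RNAPII loops, 17.7 kb, was 15.8 kb with 1 kb around midpoints, 15.9 kb at 6 PETs, 14.1 kb at 10 PETs and 19.1 kb without overlapping anchors. The median log2 ratio of counts, 1.42, was 1.58 with 50% overlap, 1.11 with up to 1 kb apart, 0.76 with up to 5 kb, 0.32 with 1 kb around midpoints and 1.66 with the cut list. The joined share of RNAPII loops on H3K4me3 anchors, 69.2% at 10 to 20 kb, was 77.1% at 6 PETs, 89.0% at 10 PETs and 81.7% with up to 5 kb. At 50 to 100 kb, 8.31%, it was 23.8% with 1 kb around midpoints, 5.98% at 6 PETs, 13.6% at 10 PETs and 12.8% with up to 5 kb. It was lower at 50 to 100 kb than at 10 to 20 kb under every one of these alternatives. The causes of these shifts were not tested.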
